A study of Mus musculus with 10 samples.

Results

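Mtf2 peaks were called at 1875 intergenic regions in both stages of erythroid development examined here, out of 28918 Mtf2 peaks called in pro-erythroblasts. The members were chosen by the overlap of the pair of Mtf2 peak lists. A region was taken when a pro-erythroblast Mtf2 peak on the 19 autosomes had its summit outside every protein-coding gene, did not reach into the 5 kb on either side of any protein-coding transcription start site (TSS), and shared at least 1 base with an Mtf2 peak called in erythroblasts. These peaks are called members below, and their Mtf2 values in either stage describe that choice. A further 16565 intergenic pro-erythroblast peaks met the same conditions but had no erythroblast peak on them, and they are called not shared. Of all 28918 pro-erythroblast peaks, 10.2% met an erythroblast peak, and of the intergenic ones 1875 of 18440 did.

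The cells came from fetal liver (FL) of e14.5 embryos, the main site of blood formation at that age. Pro-erythroblasts were sorted as CD71+Ter119-/lo cells and the later erythroblasts as CD71+Ter119+ cells (Ter119high in the labels), with 500000 cells per sample. The Mtf2 libraries are from WT cells only, and H3K27me3 was profiled in WT and in Mtf2-null (Pcl2 -/-) cells of both fractions, each with an IgG control. The strain background is C57Bl/6, and the mutant line was made from gene-targeted EUCOMM ES cells aggregated with CD1 blastocysts, with later breeding on C57Bl6/J. The lists hold no RNA measurement, so the sorted fractions could not be set against marker genes. No Mtf2 library of Mtf2-null cells was analysed here, so the signal this antibody gives without its target is not known.

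Mtf2, also called Pcl2, is an accessory subunit of Polycomb repressive complex 2 (PRC2), the enzyme complex that trimethylates lysine 27 of histone H3 (H3K27me3) at silenced genes. It is best known for bringing PRC2 to CpG-rich promoters. Intergenic DNA of the mouse is rich in retrotransposons, which copy themselves through RNA. IAP and MERVL elements are of the endogenous retrovirus type, with a long terminal repeat (LTR) at either end of gag and pol genes. L1 elements have no LTR and carry an upstream reading frame and a larger one for the reverse transcriptase. In somatic cells IAP elements are mainly silenced by DNA methylation and H3K9 methylation.

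The members were made mostly of repeated DNA. Counting every 24-base word of the genome on both strands, a median of 92.1% of the words of a member (quartiles 86.6% and 96.0%) occurred at least 10 times, and 4.29% occurred once. In 1710 of 1875 members (91.2%) at least 75% of the words were repeated to that degree, and in 7 members fewer than 25% were. In 1 kb around the summit the median was 94.98% for members, 84.3% for not shared peaks and 84.5% for all pro-erythroblast Mtf2 peaks. The same figure was 4.50% in 13437 intergenic windows of 1 kb laid on a fixed grid, of which 7.73% reached 75%. A typical word at a member summit had 733 copies in the genome, compared with 541 at not shared summits and 1 in the grid windows.

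Most members were copies of a few elements. When members were aligned to each other (at least 80% identity over at least 50% of the peak), 6 sequences each covered 30 or more members, and every peak was then given to the element that covered it best. The first element, on chr13:39598796-39605381, is 6586 bases long and is bounded by identical direct repeats of 339 bases. It has open frames of 1024 and 613 codons with the protease and reverse transcriptase signatures of a retrovirus, and it is called IAP-like. The second, on chr14:106359931-106366326, is 6396 bases long with identical terminal repeats of 492 bases and a longest frame of 1182 codons, and it is called MERVL-like. The third was represented by the Gm17646 transcript of 7232 bases, with frames of 1281 and 357 codons in the arrangement of L1, and it is called L1-like. The names rest on these features and on general knowledge of mouse repeats, since no repeat annotation was used.

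Short stretches of these 3 elements are shown because they were the ones most often found unchanged among the members. Each is 60 bases long in build NCBIM37 (mm9), and the capitals mark the 24-base word that the largest number of members carried exactly.
IAP-like, chr13:39598921-39598980, plus strand: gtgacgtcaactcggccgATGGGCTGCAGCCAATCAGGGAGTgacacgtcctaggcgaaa
MERVL-like, chr14:106360173-106360232, plus strand: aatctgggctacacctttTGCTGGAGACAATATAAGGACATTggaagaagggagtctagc
L1-like, chr10:103404480-103404539, minus strand: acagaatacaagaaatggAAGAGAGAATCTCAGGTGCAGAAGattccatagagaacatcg
The IAP-like stretch lies in the terminal repeat, at bases 126 to 185 of the element, and its word was found in 762 members. The MERVL-like word, also in the terminal repeat, was found in 210 members, and the L1-like word was found in 99. Each of the 3 words was carried by members on all 19 autosomes, with 5614, 2146 and 14060 exact copies in the autosomal genome. All 60 bases were intact in 65, 84 and 38 members.

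IAP-like elements accounted for 976 of the 1875 members (52.1%, 95% Wilson interval 49.8% to 54.3%). The MERVL-like family held 256 (13.7%), the L1-like family 272 (14.51%), and 275 members (14.7%) fell in no family. Families 4, 5 and 6, which were left unnamed, held 42, 20 and 34. Over all 28918 pro-erythroblast peaks the shares were 13.6% IAP-like, 5.36% MERVL-like and 38.8% L1-like, and families 4, 5 and 6 held 2.25%, 0.712% and 3.66%. Not shared intergenic peaks were 11.2% IAP-like and 42.4% L1-like, the reverse order of the members. Because the elements were found among the members, the shares lean towards them, and copies of 1 element are not independent regions.

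**Figure D1:**
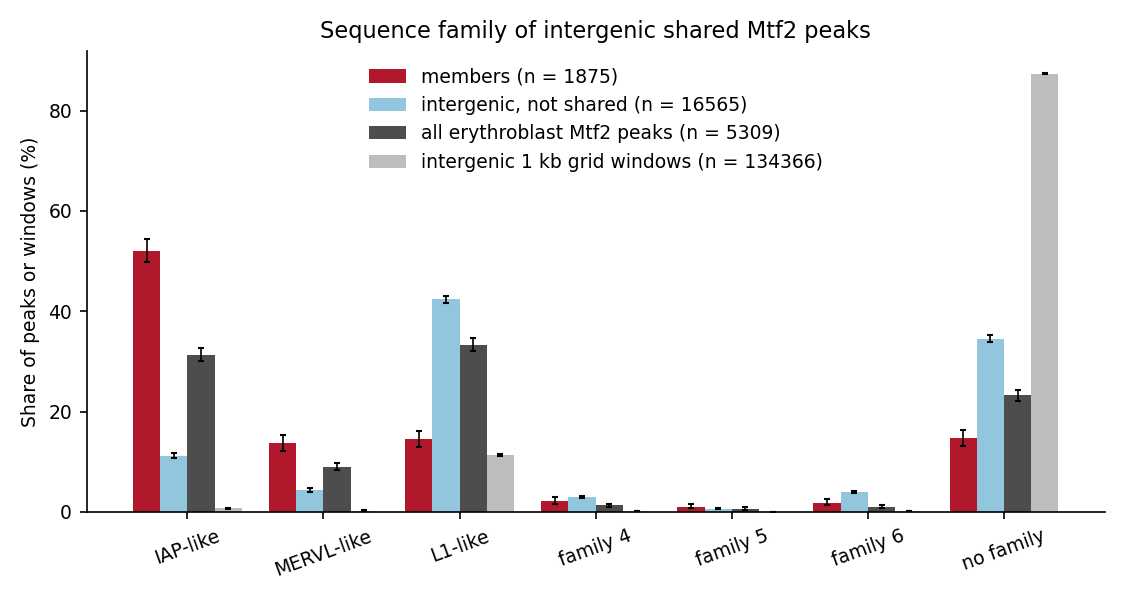
Share of peaks or windows in each sequence family (%), for the members, the not shared intergenic peaks, all erythroblast Mtf2 peaks and intergenic 1 kb grid windows; bars start at 0 and error bars are 95% Wilson intervals. The members are 52.1% IAP-like and 14.51% L1-like, and the not shared peaks are 11.2% and 42.4%.

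The grid windows gave the level of each family in intergenic DNA. IAP-like sequence covered 0.699% of 134366 windows, MERVL-like 0.281% and L1-like 11.4%. In 1 kb around the member summits, the window of equal size, the shares were 51.5%, 13.7% and 13.9%. Thus the LTR elements were far more frequent at members than in the grid, whereas the L1-like share was close to that of the grid.

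The IAP-like share was higher in longer and higher-scoring members. It was 21 of the 140 members of up to 1 kb, 55.0% of the 635 of 2 to 4 kb and 75.4% of the 280 over 6 kb. Among not shared peaks of the same length classes it was 6.53%, 17.8% and 35.2%. By the score of the peak caller, it was 15.5% of the members at 100 or below and 84.6% of the 566 members above 400, compared with 4.75% and 65.8% of the not shared peaks. The interval for members lay above that for not shared peaks in each of these 5 classes.

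Seen from the elements, nearly every IAP-like copy had an Mtf2 peak in pro-erythroblasts. Of 1943 autosomal copies with at least 3000 aligned bases, 1902 (97.9%) met a pro-erythroblast Mtf2 peak, 1055 (54.3%) an erythroblast Mtf2 peak and 1050 (54.0%) met both. For 728 MERVL-like copies the values were 670 (92.03%), 308 (42.3%) and 306 (42.0%). For 22602 L1-like copies they were 6562 (29.0%), 828 (3.66%) and 478 (2.11%). These copies include those at members, those within genes and those near a TSS. The IAP-like copies with an erythroblast peak were a median of 95.1% identical to the reference element and those without 93.7%.

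Of the intergenic pro-erythroblast peaks, 976 of 2831 IAP-like peaks (34.5%) and 256 of 980 MERVL-like peaks (26.1%) were shared with erythroblasts. In the L1-like family 272 of 7292 (3.73%) were shared, and 4.59% of the peaks of no family. Being shared is part of the rule that chose the members, so these values describe the choice. The 2141 erythroblast Mtf2 peaks that met no pro-erythroblast peak were 1.40% IAP-like and 62.4% L1-like.

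Within the elements the peaks were broad. An IAP-like member was a median of 4040 bases long (quartiles 2749 and 5719), with 87.9% of its bases aligned to the element, and it spanned a median of 57.2% of the element. For MERVL-like members the median length was 3764 bases, and 96.2% of the bases were aligned. In 171 IAP-like and 74 MERVL-like members at least 90% of the reference element was spanned. L1-like members were shorter, with a median of 1923 bases, and covered 22.7% of the reference.

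Most summits were spread along the element, with local clusters in the IAP-like members in either stage. In pro-erythroblasts 935 IAP-like summits could be placed, with a median at base 4088 and quartiles at 1246 and 5420, and the 1059 erythroblast summits had a median at base 4116. The terminal repeats make up 10.3% of the IAP-like element and held 16.6% of the pro-erythroblast summits and 5.85% of the erythroblast summits. In the bin from base 1001 to 1250 there were 105 pro-erythroblast summits and 20 erythroblast summits. The bins on either side held 19 and 18 pro-erythroblast summits. From base 4251 to 4500 there were 79 pro-erythroblast and 105 erythroblast summits. The bin before it held 34 and 46, and the bin after it 49 and 60. From base 6251 to 6500, within the terminal repeat, there were 85 and 32. In MERVL-like members the terminal repeats, 15.4% of the element, held 21.2% and 24.6% of the summits. More members aligned to the terminal repeats than to the interior. In the IAP-like family 88.1% aligned at bases 1 to 250 and 37.6% at bases 2001 to 2250, and in the MERVL-like family 78.8% and 62.35%. The summit shares were not corrected for this. How reads that match many copies were placed is not given in the sources used here, and its part in the summit positions, tag counts and shares was not tested.

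**Figure D2:**
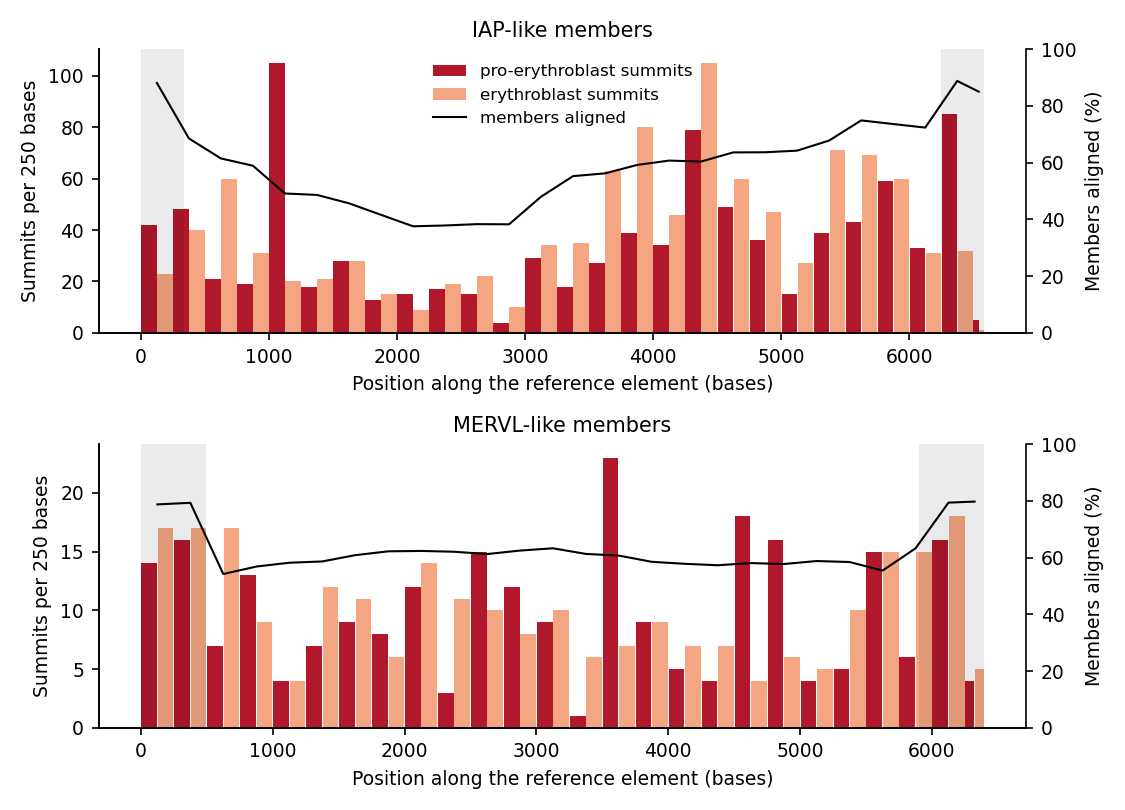
Summits of IAP-like (top) and MERVL-like (bottom) members along the reference element, in bins of 250 bases (left axis), for pro-erythroblasts and erythroblasts; the line gives the share of members aligned to each bin (right axis, %) and grey bands mark the terminal repeats. Most summits are spread over the element. Local clusters in the IAP-like element include 105 pro-erythroblast summits between bases 1001 and 1250 and 105 erythroblast summits between bases 4251 and 4500.

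The strength of Mtf2 at the members comes from the peak lists that chose them and is given as a description. Fold enrichment is the ChIP signal over the local IgG background as the peak caller estimates it, and the score is minus 10 times the log10 of its p. Members had a median fold enrichment of 9.71 in pro-erythroblasts (quartiles 7.80 and 12.7, range 3.92 to 48.3), against 8.61 for not shared peaks and 8.83 for all. They were also longer, with a median of 3087 bases against 1399, and held more tags, 147 against 60. The 2007 erythroblast peaks on the members had a median of 1103 bases, 30 tags and a fold enrichment of 9.46, close to the 10.15 of all 5309 erythroblast Mtf2 peaks.

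Erythroblast peaks were weaker calls. Their lowest false discovery rate (FDR) was 6.94%, and on members the median was 8.35% and the highest 100%. No pro-erythroblast Mtf2 peak had an FDR above 0.31%. A high erythroblast score did not always go with a low FDR. The peak of score 199.9 on a member nearest to Slc16a7 had an FDR of 50%. Of the members, 1430 had a score of at least 100 in pro-erythroblasts and 246 did in erythroblasts. After tags at the same position were counted once, the erythroblast Mtf2 library held 15669899 unique tags and the pro-erythroblast library 29009650, which were 39.7% and 34.6% of their total tags. Unique tags were 58.1% and 75.5% of the tags in the IgG libraries of the same fractions. The effect of depth on which peaks were shared was not tested.

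Between the stages the values of a member were only loosely related. Over the 1875 members, fold enrichment had a Pearson correlation of 0.29 on the log2 scale and a Spearman correlation of 0.21, and tags had 0.40 on both. Members share element sequence, libraries and length, so this is a description. A member met 1 erythroblast peak in 1629 cases and between 2 and 5 in the others. Neighbouring members could also meet the same erythroblast peak, as members nearest to Myocd did. Such a peak enters the correlations and the summit distances more than once. The erythroblast peak of the highest score spanned a median of 39.1% of the member's length. Its summit lay a median of 637 bases from that of the member, within 100 bases in 495 members and over 1000 bases away in 697. The median distance was 914 bases in IAP-like and 106 in L1-like members.

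**Figure D3:**
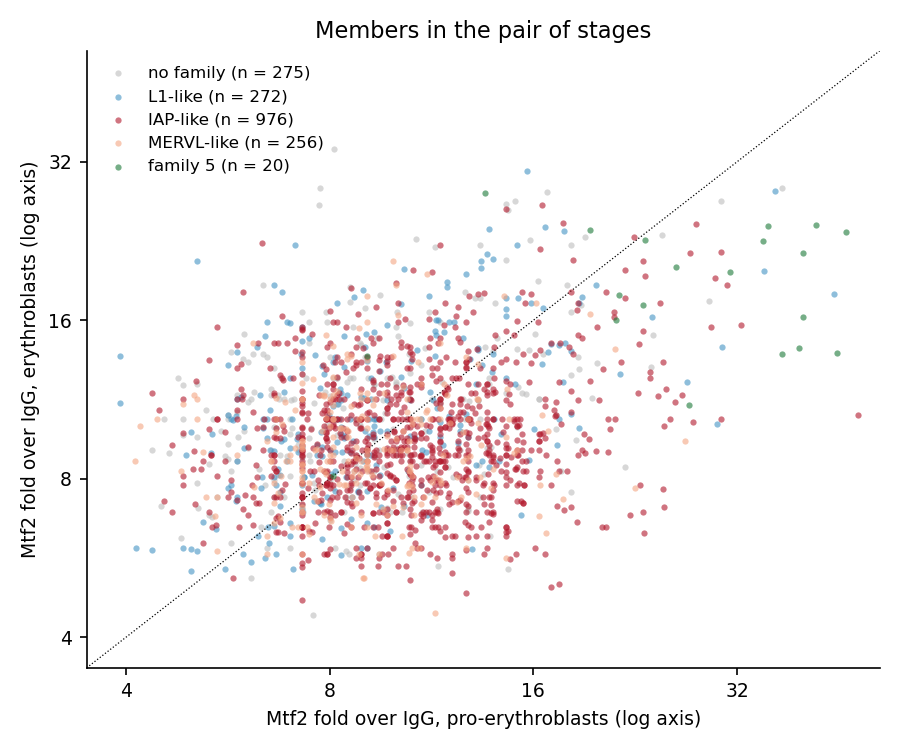
Mtf2 fold enrichment over IgG of each member in pro-erythroblasts (x) and of its erythroblast peak (y), both on log axes, coloured by family for the 4 groups of over 200 members and for family 5; the dotted line marks equal values. The median is 9.71 in pro-erythroblasts, and the 20 members of family 5 lie at the upper right with medians of 29.2 and 18.8.

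The edges of the rule were thinly filled. The smallest overlap between the stages was 4 bases, and 21 members shared fewer than 50 bases, while 1674 shared at least 500. Just outside, 13 not shared peaks had an erythroblast peak within 50 bases, the nearest 8 bases away. The member closest to a TSS had its edge 5079 bases from it. The TSS condition left out 111 shared peaks with an intergenic summit, the farthest reaching to 4999 bases from a TSS.

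The strongest members in pro-erythroblasts were led by an IAP-like copy on chr16:80761773-80767195, upstream of Ncam2, a neural cell adhesion gene 439 kb away. Its fold enrichment was 48.3 with 351 tags in pro-erythroblasts and 10.6 with 26 tags in erythroblasts, and it met a WT pro-erythroblast H3K27me3 peak. Of the next 5 by fold enrichment, 4 belonged to family 5 and had as nearest genes Tbpl1 (6.65 kb away, fold enrichment 46.4 in pro-erythroblasts and 23.5 in erythroblasts), Dopey2 (9.80 kb, 44.9 and 13.9), Usp10 (16.1 kb, 41.9 and 24.3) and Mettl21d (31.9 kb, 40.1 and 21.5). The remaining one was L1-like, with 44.5 and 17.9, and its nearest gene was the cereblon gene Crbn, 225 kb away. Family 5, an LTR element of 8811 bases, had a median fold enrichment of 29.2 in pro-erythroblasts and 18.8 in erythroblasts over its 20 members, and a GC content of 57.0%.

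The highest fold enrichment in erythroblasts, 33.9 with 29 tags, was at a member of no family on chr1:131081003-131082735, 87.8 kb from Thsd7b. The same member reached 8.11 with 63 tags in pro-erythroblasts. It was followed by an L1-like member 55.0 kb from Trib2, a Tribbles pseudokinase gene, with 30.7 in erythroblasts and 15.7 in pro-erythroblasts. The next had as nearest genes 3110082D06Rik (172 kb away, 28.6 and 37.2), Gdi2 (307 kb, 28.5 and 7.75), Gm11353 (29.7 kb, 28.1 and 36.4) and Nedd1 (128 kb, 28.1 and 16.8). The erythroblast peak of the Gdi2 member shared only 36 bases with it. The members named by 3110082D06Rik and Nedd1 were mostly single-copy DNA, with 18.2% and 16.3% of their words found at least 10 times. All 6 rested on few erythroblast tags, between 20 and 53.

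To show what such a site looks like, the 300 bases around the pro-erythroblast summit are given for 3 members, on the plus strand of NCBIM37, with capitals for bases in words found at least 10 times in the genome. They are the strongest in pro-erythroblasts and the pair strongest in erythroblasts, each named by its nearest gene. The Ncam2 and Thsd7b windows lie outside the erythroblast peaks of these members, which begin at bases 80766013 and 131082330, so that they show the pro-erythroblast site only.
Ncam2, IAP-like, chr16:80762186-80762485: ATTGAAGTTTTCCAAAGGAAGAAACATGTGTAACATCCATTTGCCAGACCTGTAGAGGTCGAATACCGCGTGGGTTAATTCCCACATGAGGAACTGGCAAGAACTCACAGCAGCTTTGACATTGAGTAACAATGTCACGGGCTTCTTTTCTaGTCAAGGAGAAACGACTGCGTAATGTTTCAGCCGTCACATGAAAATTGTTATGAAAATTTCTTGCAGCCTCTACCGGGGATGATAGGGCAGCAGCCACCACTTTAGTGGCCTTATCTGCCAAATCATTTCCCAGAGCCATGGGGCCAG
Thsd7b, no family, chr1:131081914-131082213: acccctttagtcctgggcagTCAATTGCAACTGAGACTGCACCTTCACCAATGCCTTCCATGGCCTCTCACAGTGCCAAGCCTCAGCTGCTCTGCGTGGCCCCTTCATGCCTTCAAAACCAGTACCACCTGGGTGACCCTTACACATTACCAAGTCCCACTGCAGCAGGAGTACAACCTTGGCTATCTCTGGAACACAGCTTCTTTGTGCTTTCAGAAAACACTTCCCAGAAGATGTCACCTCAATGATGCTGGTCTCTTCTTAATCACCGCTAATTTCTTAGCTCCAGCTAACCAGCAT
Trib2, L1-like, chr12:15878509-15878808: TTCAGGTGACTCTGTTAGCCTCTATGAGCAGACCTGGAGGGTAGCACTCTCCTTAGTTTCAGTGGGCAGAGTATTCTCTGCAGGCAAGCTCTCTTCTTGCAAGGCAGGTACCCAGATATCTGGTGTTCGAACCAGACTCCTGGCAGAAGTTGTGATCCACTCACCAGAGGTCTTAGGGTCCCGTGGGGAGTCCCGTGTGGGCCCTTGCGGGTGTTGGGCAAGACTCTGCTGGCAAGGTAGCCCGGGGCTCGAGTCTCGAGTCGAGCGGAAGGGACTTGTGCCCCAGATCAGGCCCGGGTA
In these windows 299, 280 and 300 of the 300 bases were in repeated words. They held 8, 2 and 10 CpG pairs, and their GC content was 46.0%, 50.3% and 58.0%.

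The question for H3K27me3 was whether the product of PRC2 was found where Mtf2 was. An H3K27me3 peak of WT pro-erythroblasts overlapped 549 members (29.3%, 95% Wilson interval 27.3% to 31.4%). Among not shared intergenic peaks the share was 7.94% (7.54% to 8.36%), and over all pro-erythroblast Mtf2 peaks it was 9.5%. The intervals did not overlap. With the member's summit required inside the H3K27me3 peak, the share was 14.4%, against 5.25% of not shared peaks and 5.88% of all. With H3K27me3 peaks of a score of at least 100 only, 216 in the list, it was 3.31%, against 0.459% and 0.723%. WT H3K27me3 and Mtf2 were called against the same IgG library in each fraction, the intervals cover counting error only, and there was 1 library per condition, so no test across samples was possible.

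In WT erythroblasts the overlap was nearly absent. Only 14 members (0.747%, 0.445% to 1.25%) met an H3K27me3 peak, compared with 0.133% of not shared peaks and 0.335% of all, and 7 of the 14 also had one in WT pro-erythroblasts. That library was deeper than the pro-erythroblast one, with 30054186 against 18945784 unique tags, and gave 4490 against 4992 peaks. Of the peaks in the list, 0.223% were IAP-like and 95.9% were in no family, whereas 31.4% of the WT pro-erythroblast H3K27me3 peaks were IAP-like. Thus most of the WT erythroblast H3K27me3 peaks lay outside the families that make up the members.

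In Mtf2-null cells few members met an H3K27me3 peak. None of the 1875 members met one of the 1407 peaks of Mtf2-null (Pcl2 -/-) pro-erythroblasts, a count of 0 that allows a share of up to 0.160%, by the limit of 3 counts, beside 0.0845% of not shared peaks and 0.083% of all. None of these 1407 peaks was IAP-like or MERVL-like, which allows up to 0.213% for either. This list is hard to read, as each of its peaks had an FDR of 100%, while the library was deeper than either WT H3K27me3 library, with 37026535 unique tags, and its IgG library held 39667267. In Mtf2-null erythroblasts 29 members (1.55%, 1.08% to 2.21%) met a peak, fewer than the 3.08% of not shared peaks and the 2.79% of all. Of those 29, 22 were L1-like, and 79.2% of that list's 5791 peaks were L1-like. Within the L1-like family the share was 8.09% of members (5.402% to 11.9%) and 6.37% of not shared peaks (5.82% to 6.96%), with overlapping intervals. Genotype cannot be told apart from depth, IgG library and the single library of each condition.

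**Figure D4:**
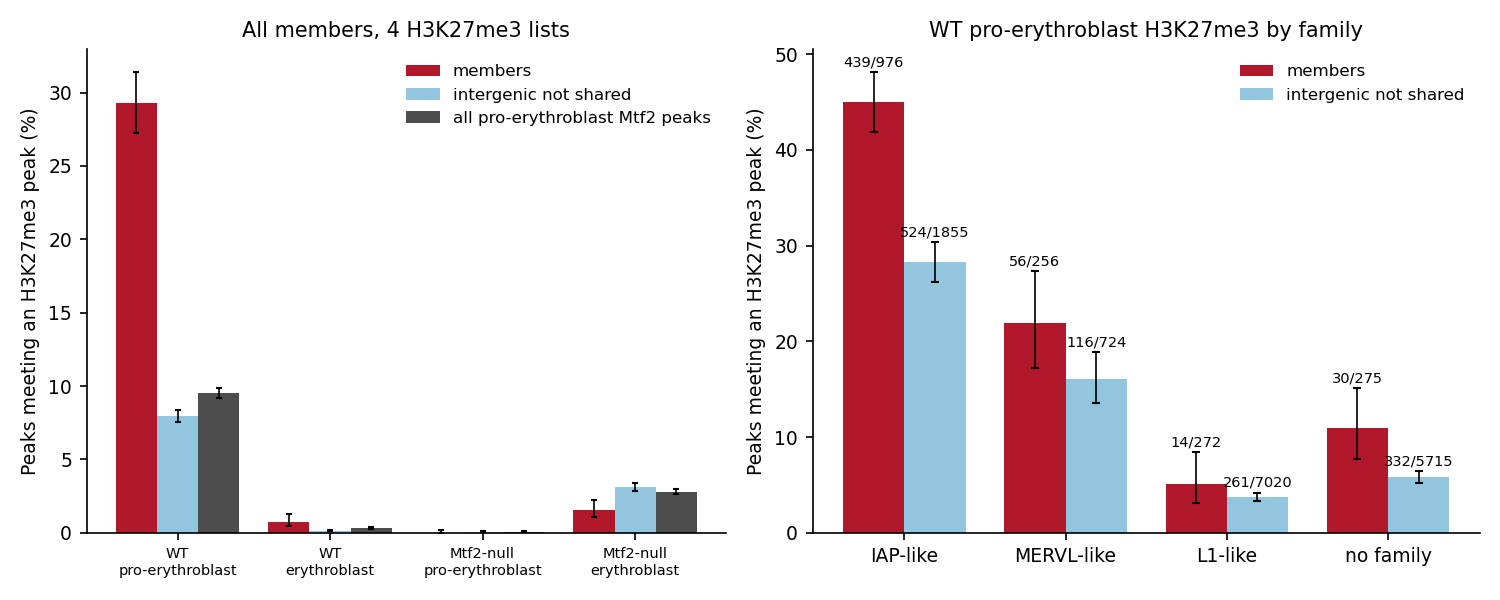
Left, share (%) of members, not shared intergenic peaks and all pro-erythroblast Mtf2 peaks that met a peak of each of the 4 H3K27me3 lists. Right, the share for WT pro-erythroblast H3K27me3 by family, with counts above the bars; error bars are 95% Wilson intervals. IAP-like members reached 45.0% and L1-like members 5.15%.

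H3K27me3 of WT pro-erythroblasts was most frequent on the IAP-like members, and 1292 of all members met no H3K27me3 peak in any of the 4 lists. The WT pro-erythroblast peaks were found at 439 of 976 IAP-like members (45.0%, 41.9% to 48.1%), at 56 of 256 MERVL-like (21.9%, 17.2% to 27.3%), at 14 of 272 L1-like (5.15%, 3.09% to 8.45%) and at 30 of 275 of no family (10.9%, 7.75% to 15.1%). Among not shared peaks of the same families the shares were 28.2%, 16.02%, 3.72% and 5.81%. The intervals of members and not shared peaks overlapped for MERVL-like and L1-like peaks and were separate for IAP-like peaks and those of no family. Of the 20 members of family 5, the family with the highest Mtf2 fold enrichment, 0 had a WT pro-erythroblast H3K27me3 peak. By the limit of 3 counts this allows a share of up to 15%. Among not shared peaks of family 5 it was 2 of 99 (2.02%), so 20 members are too few to tell the groups apart.

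Longer peaks have more room to meet another peak, so the shares were set side by side by length. In every length class the members were above the not shared peaks, from 12.9% against 4.77% at up to 1 kb to 52.1% against 28.9% over 6 kb, with separate intervals. Within the IAP-like family the share was 28.6% of 21 members against 11.3% at up to 1 kb, 27.5% against 18.7% from 1 to 2 kb, 37.2% against 33.0% from 2 to 4 kb, 51.7% against 42.9% from 4 to 6 kb and 59.2% against 57.7% over 6 kb, with overlapping intervals in all 5 classes. By the Mtf2 score, the share was 7.68% in the lowest-scoring quartile of members and 55.4% in the highest, while the median length went from 1366 to 5792 bases.

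**Figure D5:**
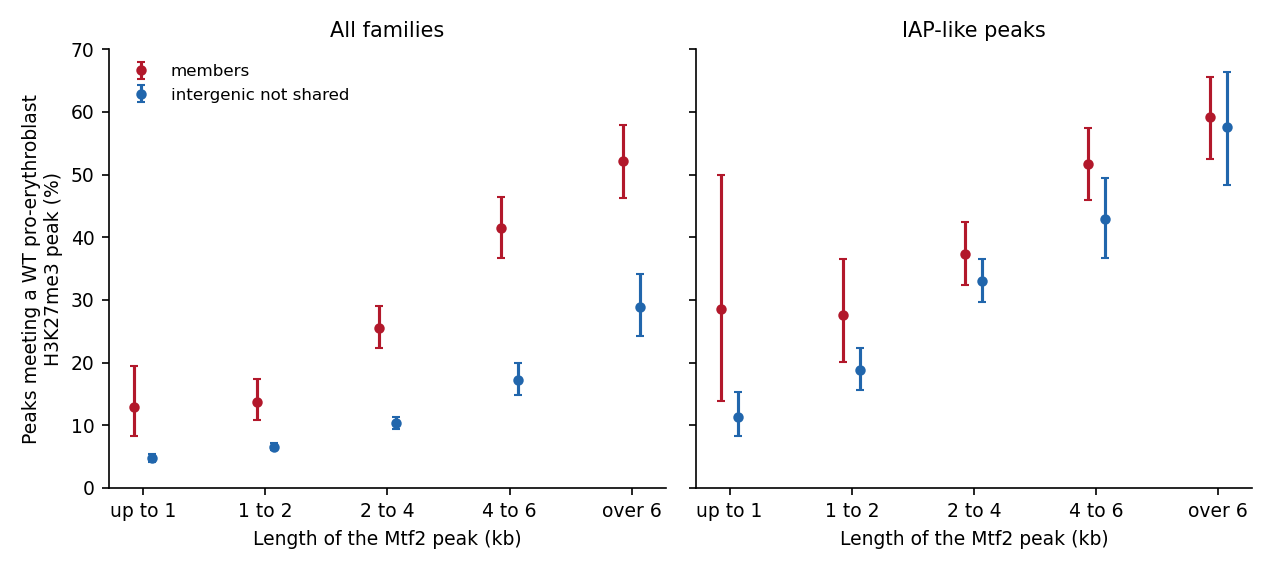
Share of Mtf2 peaks that met a WT pro-erythroblast H3K27me3 peak (%), by length of the Mtf2 peak (kb), for members and not shared intergenic peaks of all families (left) and of the IAP-like family (right), with 95% Wilson intervals. Over 6 kb, the members reach 52.1% and the not shared peaks 28.9% in all families, and 59.2% and 57.7% in the IAP-like family.

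The genomic copies of the elements include those at members and were set against the same lists, so they are not a separate set. Of 1943 IAP-like copies, 988 (50.8%) had an H3K27me3 peak in WT pro-erythroblasts, 8 (0.412%) in WT erythroblasts, 0 in Mtf2-null pro-erythroblasts (up to 0.154%) and 19 (0.978%) in Mtf2-null erythroblasts. Of 728 MERVL-like copies the numbers were 188 (25.8%), 1, 0 (up to 0.412%) and 10. Of 22602 L1-like copies they were 378 (1.67%), 16, 42 and 2542 (11.2%).

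The 639 WT pro-erythroblast H3K27me3 peaks on members were 12.8% of that list, with a median of 1064 bases, 28 tags and a fold enrichment of 9.22, against 816 bases, 22 tags and 9.14 over the whole list. Their median FDR was 9.62%. High scores were found at members 17.6 kb from Bnip1 (score 178), 315 kb from Odz3 (178) and 145 kb from the complement receptor gene Cr2 (177), of which the Bnip1 member was in no family and the other 2 were IAP-like. The FDR of these 3 peaks was between 30% and 37.5%. In WT erythroblasts the highest scores were at members 21.5 kb from Rfxap (88.8), 139 kb from Gm8910 (73.5), 320 kb from D3Ertd751e (62.8) and 46.5 kb from Fggy (62.8). The FDR of these peaks was between 7.28% and 19.2%, and its median over the 14 WT erythroblast peaks on members was 27.7%. In Mtf2-null erythroblasts the highest scores were at an IAP-like member 489 kb from Ghitm (145) and at L1-like members 1457 kb from Cntnap5a (109), 76.1 kb from Fgf14 (108) and 301 kb from Chrm2 (101), all with an FDR of at most 1.1%.

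Base composition was close between members and other Mtf2 peaks and differed from that of the grid. In 1 kb around the summit the median GC content was 44.8% in members, 44.2% in not shared peaks, 44.4% in all and 40.8% in the grid windows. The ratio of observed to expected CpG was 0.33, 0.26, 0.25 and 0.15. It was 0.43 in IAP-like, 0.24 in MERVL-like and 0.23 in L1-like members. By a GC content of at least 50% and a ratio of at least 0.6, 57 members (3.04%) were like CpG islands, against 2.83% of not shared peaks, 2.84% of all peaks and 0.145% of grid windows, and 50 of the 57 were IAP-like.

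Short motifs were counted on either strand in the 300 bases around the summit. AGATAA and TGATAA, forms of the GATA site that share their last 5 letters, were in 21.1% and 17.8% of members. They were in 13.2% and 17.8% of not shared peaks, 13.7% and 17.4% of all, and 19.98% and 19.7% of grid windows. In IAP-like members AGATAA was found in 27.2% and TGATAA in 16.7%. The values were 17.6% and 19.1% in MERVL-like members and 12.1% and 17.3% in L1-like members. CANNTG, the E-box, was in 78.6% of members and CACCC, the Klf1 type, in 41.4%, against 81.2% and 46.3% of not shared peaks, 80.9% and 45.8% of all, and 79.7% and 36.5% of grid windows. A run of at least 20 bases with a unit of up to 4 was in 5 members (0.267%). It was in 3.07% of not shared peaks, 3.30% of all and 7.73% of grid windows. Since most windows are copies of a few elements, the windows of 1 family are not independent.

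Distance from genes is partly set by the rule, which kept members more than 5 kb from any protein-coding TSS. The median distance from summit to the nearest protein-coding TSS was 100719 bases (quartiles 31943 and 309578), close to the 110024 bases of not shared peaks and the 113670 bases of the grid. There were 83 members within 10 kb of a TSS, 563 from 10 to 50 kb and 276 beyond 500 kb. The 3 farthest all lay downstream of Cntnap5b, between 1990 and 2211 kb away. Summits of 53 members were inside a gene of another kind, 15 of them lincRNAs and 14 pseudogenes.

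The nearest TSS belonged to 1281 genes by identifier and 1279 by symbol, and 915 symbols were nearest to 1 member. Ncam2 and Cntn5, both cell adhesion genes, were each nearest to 9 members, the most of any gene, followed by Gm8910 and Tecrl with 8 each. These counts were not set beside those of other peaks. All 19 autosomes held members, between 0.57 and 0.89 per Mb. The 1117 windows of 1 Mb with a member held 1 in 654 cases. The most crowded, starting at 53 Mb on chromosome 17 with the nearest genes Efhb, Kcnh8, Sgol1 and Sult1c2, held 9 members, of which 3 were IAP-like and 4 MERVL-like. It was followed by the windows starting at 83 Mb on chromosome 5, where the nearest gene was Tecrl, and at 11 Mb on chromosome 9, where it was Cntn5, with 7 members each, 6 and 5 of them IAP-like.

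Erythroid and regulatory genes were the nearest for few peaks of either kind. The 33 erythroid genes were nearest to 2 members (0.107%), against 0.0966% of not shared peaks. A member of no family lay 12.1 kb from Tfrc, which encodes CD71 itself, with a fold enrichment of 7.28 in pro-erythroblasts and 16.6 in erythroblasts. An IAP-like member lay 53.5 kb from Myb, the progenitor transcription factor, with 9.20 and 8.29. Haematopoietic transcription factors were nearest to 5 members (0.267%, against 0.290% of not shared peaks), among them IAP-like copies 14.2 kb from Ikzf2 and 35.4 kb from Satb1.

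Wnt signalling genes were nearest to 5 members (0.267%, against 0.211% of not shared peaks) and Polycomb genes to 3 (0.160%, against 0.0664%). The first included a member of no family 23.0 kb from the ligand gene Wnt7a and a MERVL-like copy 38.8 kb from Sfrp1, a secreted Wnt antagonist. The second included a member 16.1 kb from Jarid2, a PRC2 cofactor, and a MERVL-like copy 20.1 kb from Phf19, the gene of the Mtf2 paralogue Pcl3. Olfactory receptor genes were nearest to 46 members (2.45%), vomeronasal receptor genes to 34 (1.81%) and cadherin and protocadherin genes to 31 (1.65%), compared with 2.23%, 1.93% and 2.46% of not shared peaks. The closest members of these lists lay 5.72 kb from Olfr890 and 5.84 kb from Olfr177, 5.64 kb from Vmn1r205 and 8.61 kb from Vmn1r219, and 113 kb from Cdh20 and 137 kb from Cdh12. Of the homeobox and Sox regulators, 4 genes were nearest to 4 members (0.213%, against 0.398% of not shared peaks), among them a member of no family 79.5 kb from Sox11.

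The promoters of these nearest genes had H3K27me3 in shares near or below those of all genes. In WT pro-erythroblasts 38 of the 1281 genes (2.97%) had a peak within 5 kb of a TSS, against 3.39% of 21418 autosomal protein-coding genes. In WT erythroblasts the values were 10.46% and 12.0%, in Mtf2-null pro-erythroblasts 0.546% and 1.26%, and in Mtf2-null erythroblasts 1.72% and 1.59%.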

How the data were processed

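Mtf2 and H3K27me3 ChIP-seq and IgG controls of sorted FL cells were used, with 10 libraries in all and 1 library per condition. The study's methods state replicates of 2, and whether they were pooled is not given in the sources used here. Per the submitters' processing notes, reads were aligned with Bowtie2 2.2.3 to mm9 and peaks called with MACS 1.3.7. The file headers name a p cutoff of 1e-05, a tag size of 25 and alignment files that are called masked. What was masked and how reads with many matches were placed are not given in the sources used here. The opening line of the series' design text names another histone mark, and the libraries were taken as H3K27me3 from their labels.

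The deposited tag count is the number of tags in a peak, not scaled for depth by the authors. The deposited score is the authors' p on a log10 scale, times minus 10, the deposited fold enrichment is their ratio of ChIP over local IgG background, and the deposited FDR is a percent from exchanging ChIP and IgG. Unique tags ranged from 15669899 to 67169672 per ChIP library. Tags are not independent molecules, so the 95% Wilson intervals and the limit of 3 counts for a count of 0 cover counting error only. These intervals are over peaks of 1 library and measure no spread between embryos.

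Coordinates are 1-based on NCBIM37, with genes of GENCODE M1. Words of 24 bases were counted over the autosomes, X and Y. Families were built with blastn 2.17.0 from the members themselves. Grid windows were 1 kb long every 10 kb. The overlap, word and family steps were tested on simulated data. Python 3.11.15, pandas 2.3.3, scipy 1.17.1 and pysam 0.24.0 were used.

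The members, gene lists and rules were chosen with earlier results of these data known, and the families after the peaks were examined. Peaks were named by rule: the 6 with the highest fold enrichment in each stage, the 3 farthest from a TSS, the 4 with the highest score in each H3K27me3 list, the 3 fullest windows and the 2 nearest to a gene of each list. Of the 3 with most tags, which were 24.6 kb from Actg1, 569 kb from Sema6d and 311 kb from Gm4745, all were IAP-like, with 503, 482 and 476 tags. Members on chromosome 18 were counted and not named. The sequence of the member upstream of Tbpl1, second in pro-erythroblast fold enrichment, is not shown. A member that the rule names for its WT pro-erythroblast H3K27me3 score and one that it names from a gene list are not reported here. Alternatives were another score limit, overlap, TSS window, gene set, peak position, length limit, chromosomes and number of peaks.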

Additional observations from a re-analysis of the deposited data

How the results depend on the processing

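Of 105 values recomputed under 15 settings, 64 stayed within the 95% interval of the value reported (Wilson for shares, order statistics for medians), or for the count of members within 1.5 times, and 41 did not. No paired analysis was possible because there was 1 library per condition and the labels give no replicate numbers. With a score of at least 100 in both Mtf2 lists, 217 members were left. Their share with WT pro-erythroblast H3K27me3 was 49.3% and with Mtf2-null erythroblast H3K27me3 0.461%, the distance between summits 841 bases, fold enrichment 11.3 and 11.2 in the pair of stages, and TSS distance 133398 bases. IAP-like, MERVL-like and L1-like members then made up 85.3%, 5.99% and 0.922%. With equal numbers of peaks, 1113 members had shares of 41.4% and 0.809%, 973 bases between summits, fold enrichment of 10.7 and 9.16 and a GC content of 45.6%. The 330 members no longer than the median peak had 14.8% with WT pro-erythroblast and 1.52% with WT erythroblast H3K27me3, 139.5 bases between summits, fold enrichment of 8.995 and 10.8, a GC content of 44.0%, a TSS distance of 115145 bases, and family shares of 16.1%, 11.8% and 24.5%. With the summit inside the H3K27me3 peak the WT shares were 14.4% and 0.427%. With an H3K27me3 score of at least 100 they were 3.31% and 0%, and 0.267% in Mtf2-null erythroblasts. Sharing 50% of the shorter peak gave 550 bases between summits, and a 10 kb TSS window a TSS distance of 117848 bases. GC content was 44.1% around the peak centre, 46.0% in 300 bases and 45.1% over the whole peak. At 90% identity the IAP-like share was 46.7%, and at 80% coverage it was 45.1% and the L1-like share 11.8%. All family shares under other settings were added after seeing the data. The cause of these shifts was not tested. The score, equal-number and length settings select by peak strength or size, which move with family. Under the 5 settings run for families, IAP-like elements were the most frequent except among the short members, where L1-like elements were.

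The erythroblast calls limit the members, since none had an FDR below 6.94% and the highest was 100%.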
